A study of Mus musculus with 36 samples.

Results

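Hearts of mice labelled cSirt4-Tg were compared with hearts of control mice when both had been given MitoQ after pressure overload. The members are the 12 libraries whose labels carry TAC and MitoQ, out of 36 in all, taken by their titles alone: 6 labelled cSirt4-Tg-TAC-MQ and 6 labelled Con-TAC-MQ. Both groups underwent transverse aortic constriction (TAC), a surgical narrowing that makes the left ventricle pump against high pressure, and both received MitoQ. As far as the titles say, they differ in genotype only. Numbers in the labels, whose meaning is not given, also differ between them, as set out below. Values of cSirt4-Tg-TAC and Con-TAC hearts, which had TAC with vehicle, and of cSirt4-Tg-Sham and Con-Sham hearts, which had sham surgery, stand beside them (6 libraries each). RNA came from whole heart tissue. The labels give no promoter for the transgene, no form of Sirt4, no strain, no age and no MitoQ dose.

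SIRT4 is a sirtuin of the mitochondrial matrix, known for acting on glutamate dehydrogenase and on fatty acid oxidation. MitoQ is a ubiquinone joined to a lipophilic cation that carries it into mitochondria, where it acts as an antioxidant. The overloaded heart is known to enlarge, to take up macrophages and to deposit matrix, and the submitters asked by which pathways reactive oxygen species from mitochondria could worsen disease in cSirt4-Tg hearts. The comparison asks which genes still separate the genotypes when both are treated with MitoQ.

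The libraries held 21.3 to 53.2 M reads in listed genes in cSirt4-Tg-TAC-MQ and 18.4 to 39.3 M in Con-TAC-MQ (M, 1e6 reads). The share of reads from the mitochondrial genome was 19.5% to 22.6% in cSirt4-Tg-TAC-MQ and 16.6% to 23.2% in Con-TAC-MQ. The 13 cardiomyocyte markers summed to 2407080 to 2588110 normalized counts in cSirt4-Tg-TAC-MQ and 1832420 to 3173910 in Con-TAC-MQ. Levels are the authors' normalized counts, and differences are cSirt4-Tg minus control on the log2(value + 1) scale with their SE. Each group holds 6 libraries titled as replicates, taken here as 6 mice. The spread behind the limma SE and p-values was pooled within the 6 groups over all 36 libraries. It therefore includes vehicle TAC and sham hearts and is not that of the MitoQ hearts alone.

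One control library stood apart. The median correlation of Con-TAC-MQ 3 with the other libraries of its group was 0.945, against 0.973 to 0.979 for the other Con-TAC-MQ libraries. Its 43 matrix genes summed to 338966 normalized counts, against 106643 to 169324 in the other Con-TAC-MQ libraries, and its 20 macrophage markers to 24880, against 6903 to 13952. Its 25 cell cycle genes summed to 11816, against 1898 to 4205, and its 44 genes of fatty acid uptake and oxidation to 391357, against 615127 to 732441. It was kept, and many of the results that rest on it are given with and without it.

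No rise of Sirt4 was detectable under the cSirt4-Tg label. Its lowest, median and highest values were 311, 355 and 376 normalized counts in cSirt4-Tg-TAC-MQ, and 334, 350 and 382 in Con-TAC-MQ. The ranges overlap almost fully (log2 difference -0.02, exact permutation test, two-sided, p = 0.742 with n = 6 each, adjusted p = 0.742 over 3 treatments). The direction of this difference turned with the scaling and with single libraries. The counts therefore do not check the label, and the genotype names used here are those of the labels.

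Of 16275 genes tested, 12 passed an adjusted p of 0.05 (0.0737%; limma, Benjamini-Hochberg), 8 higher (0.0492%) and 4 lower (0.0246%) in cSirt4-Tg-TAC-MQ, and 669 had an unadjusted p under 0.05 (4.11%). The lower genes were Dmd, Exoc2, Ssbp2 and Polr3g. The higher genes were Lyz1, Mmp12, Ndnf, Klhdc7a, Mgl2, Ndrg4, Atp6v0e2 and Sema4a. In 11 of the 12 the libraries of the groups did not overlap, the exception being Mmp12, where Con-TAC-MQ 3 lay among the cSirt4-Tg-TAC-MQ libraries. Over all genes tested the groups did not overlap in 142 (0.873%), 92 higher (0.565%) and 50 lower (0.307%).

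**Figure D1:**
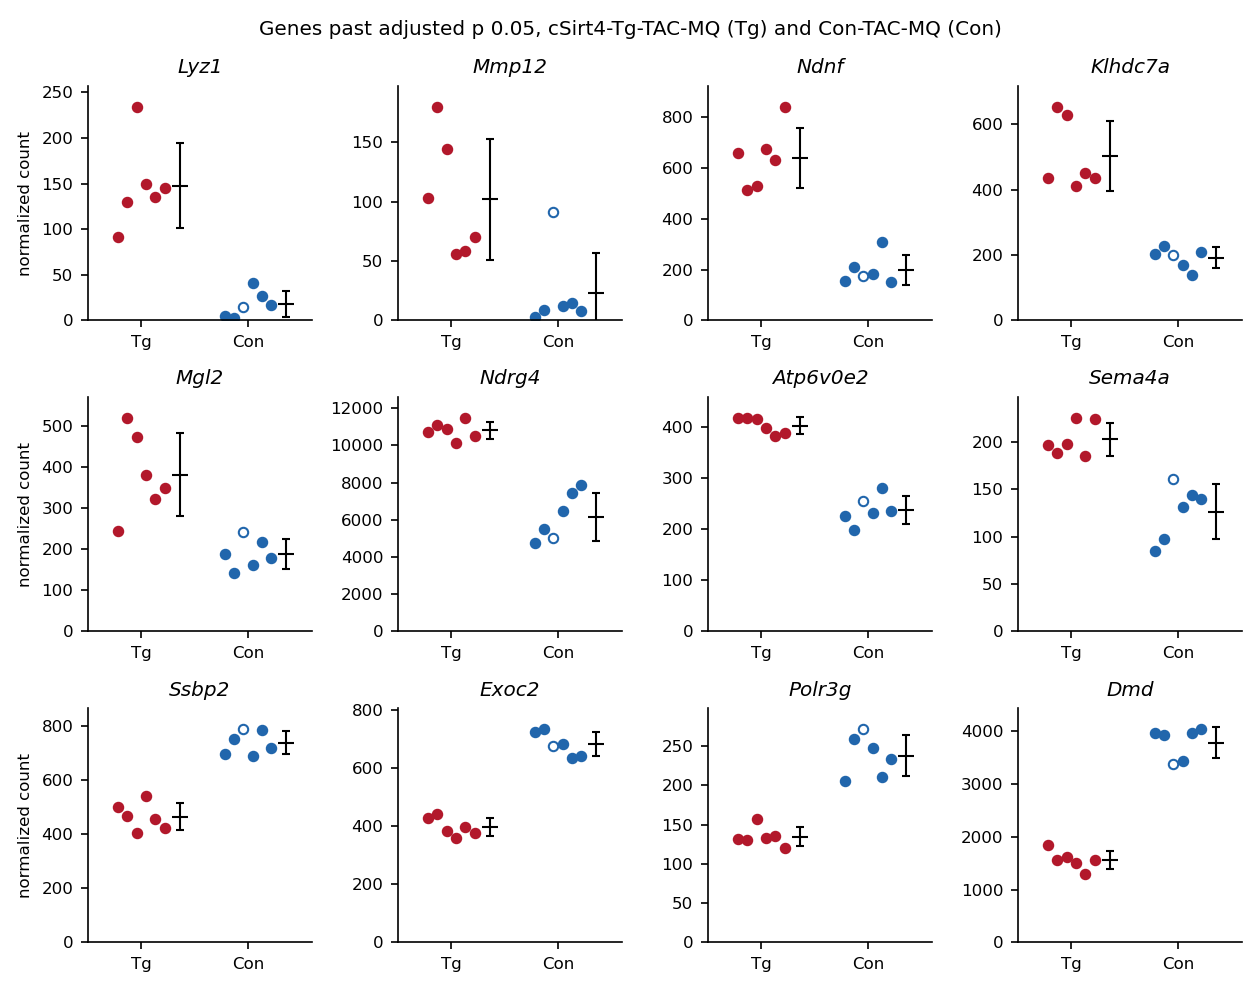
Normalized read counts (vertical axis, from 0) of the 12 genes past the threshold in the 6 cSirt4-Tg-TAC-MQ libraries (Tg, red) and the 6 Con-TAC-MQ libraries (Con, blue). Each point is 1 library, the open circle is Con-TAC-MQ 3, and the bar is the mean ± SD (lower end hidden below 0 for Mmp12). The groups do not overlap in 11 of the 12 genes, Mmp12 being the exception.

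Dmd encodes dystrophin, the large protein that links actin to the membrane complex of muscle cells. Dmd (ENSMUSG00000045103, mm39 chromosome X, 81992476 to 84249747) had 1296, 1558 and 1838 normalized counts as lowest, median and highest in cSirt4-Tg-TAC-MQ, and 3371, 3936 and 4028 in Con-TAC-MQ. Every cSirt4-Tg-TAC-MQ heart lay below every control heart, at 0.414 times the control mean (log2 -1.28, SE 0.16, adjusted p = 7.13e-06). Dmd passed the threshold in all 12 fits that left out 1 MitoQ library (adjusted p 1.39e-05 to 6.22e-05).

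Exoc2 encodes a subunit of the exocyst, which tethers secretory vesicles to the plasma membrane. Exoc2 (ENSMUSG00000021357, mm39 chromosome 13, 30997902 to 31158076) had 361, 390 and 442 normalized counts in cSirt4-Tg-TAC-MQ, and 635, 679 and 734 in Con-TAC-MQ. The gap between the groups was wider than the range of either one (log2 -0.78, SE 0.09, adjusted p = 7.13e-06).

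Ssbp2 encodes a single-stranded DNA binding protein that partners LIM-domain transcription complexes. Ssbp2 (ENSMUSG00000003992, mm39 chromosome 13, 91608402 to 91851548) had 405, 463 and 543 normalized counts in cSirt4-Tg-TAC-MQ, and 691, 736 and 789 in Con-TAC-MQ. Every cSirt4-Tg-TAC-MQ library was lower than every control library (log2 -0.67, SE 0.10, adjusted p = 0.000509). Polr3g, a subunit of RNA polymerase III, (ENSMUSG00000035834, mm39 chromosome 13, 81821962 to 81859132) had 120, 132 and 157 normalized counts in cSirt4-Tg-TAC-MQ, and 205, 240 and 271 in Con-TAC-MQ (log2 -0.82, SE 0.14, adjusted p = 0.00246). Exoc2, Ssbp2 and Polr3g passed the threshold in all 12 fits without 1 MitoQ library.

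The sequences before the start sites of these 4 genes are shown because they are the genes that passed the threshold as lower in cSirt4-Tg-TAC-MQ. They are the 250 bases before the most upstream start that RefSeq lists for each gene on GRCm38.p6, read 5′ to 3′ on the gene's strand, with capitals marking motif matches. The positions differ from the mm39 positions above because the builds differ, and the start used in these hearts was not measured. Dmd lies at chrX:82948620-82948869 on the plus strand, Exoc2 at chr13:30974048-30974297 on the minus strand, Ssbp2 at chr13:91460847-91461096 on the plus strand and Polr3g at chr13:81711014-81711263 on the minus strand.
Dmd: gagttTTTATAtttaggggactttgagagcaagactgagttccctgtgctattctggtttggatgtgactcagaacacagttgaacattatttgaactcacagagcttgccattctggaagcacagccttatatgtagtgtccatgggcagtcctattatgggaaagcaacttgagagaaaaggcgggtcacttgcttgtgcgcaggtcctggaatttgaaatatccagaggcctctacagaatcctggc
Exoc2: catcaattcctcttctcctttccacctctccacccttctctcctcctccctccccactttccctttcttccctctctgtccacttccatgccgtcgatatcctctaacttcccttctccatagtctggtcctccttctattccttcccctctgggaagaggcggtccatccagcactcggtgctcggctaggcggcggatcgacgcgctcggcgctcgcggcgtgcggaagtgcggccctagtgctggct
Ssbp2: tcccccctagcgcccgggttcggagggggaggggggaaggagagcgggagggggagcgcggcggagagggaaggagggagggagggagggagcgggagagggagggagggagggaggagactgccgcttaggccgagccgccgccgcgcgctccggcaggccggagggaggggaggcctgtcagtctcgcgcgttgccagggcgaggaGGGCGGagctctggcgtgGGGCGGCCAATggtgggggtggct
Polr3g: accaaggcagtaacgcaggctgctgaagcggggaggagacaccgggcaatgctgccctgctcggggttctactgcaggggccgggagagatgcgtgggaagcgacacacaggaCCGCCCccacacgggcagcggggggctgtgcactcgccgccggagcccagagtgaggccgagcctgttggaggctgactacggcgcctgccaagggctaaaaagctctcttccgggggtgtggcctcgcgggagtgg
The motifs searched on both strands were the TATA box TATAAA, the CCAAT box, the GC box GGGCGG, the cyclic AMP element TGACGTCA and the E-box CACGTG. The Ssbp2 window held GGGCGG at 42 and 24 bases and CCAAT at 18 bases before the start, the Polr3g window held GGGCGG on the other strand at 137 bases, and the Dmd window held TATAAA on the other strand at 245 bases. None of these letters was in the Exoc2 window. Of the 32851 promoters in the table, 32.7% held GGGCGG, 33.8% CCAAT and 12.4% TATAAA. The 4 windows shared no one motif, and their GC content was 45.2% for Dmd, 60.0% for Exoc2, 76.0% for Ssbp2 and 68.4% for Polr3g, against a median of 52.4% over the table.

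Exoc2, Polr3g and Ssbp2 all lie on chromosome 13, which holds 640 of the genes tested. Of those 640, 3 passed the threshold, all 3 lower, against 4 lower of 16275 over all genes (0.0246%). The groups did not overlap in 6 of the 640 (0.938%), against 0.873% over all genes. The cause was not tested. With all 36 libraries no neighbour of Exoc2, Polr3g or Ssbp2 passed the threshold. Within 1 Mb of Exoc2 none of 10 neighbours passed the threshold (log2 -0.65 to 0.94), the ends of that range being the transcription factor genes Foxf2, at 4.74 ± 3.13 normalized counts in cSirt4-Tg-TAC-MQ and 7.97 ± 3.87 in Con-TAC-MQ (SD, n = 6 each), and Irf4, at 60.5 ± 22.1 in cSirt4-Tg-TAC-MQ and 30.3 ± 7.69 in Con-TAC-MQ. None of 6 neighbours of Polr3g passed (log2 -0.20 to 0.09), nor did any of 3 neighbours of Dmd (log2 -0.06 to 0.01).

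Of 13 neighbours of Ssbp2 none passed, and 1 had groups without overlap in the opposite direction. This was Atp6ap1l, named for its likeness to a proton pump accessory subunit and named here after its values were seen. It had 9.76, 14.4 and 35.1 normalized counts in cSirt4-Tg-TAC-MQ, and 0, 2.45 and 6.42 in Con-TAC-MQ (log2 2.60, SE 0.58, adjusted p = 0.0723). Without Con-TAC-MQ 3 Atp6ap1l passed (limma, log2 2.85, adjusted p = 0.0217). Its log2 difference was 2.10 in sham hearts and 2.08 in vehicle TAC hearts. The remaining neighbours of Ssbp2 lay between log2 -0.18 for Atg10 and 0.17 for Gm4130, as the plot by distance shows. The neighbours named were chosen as the ends of these ranges. Ssbp2 overlaps 4833422C13Rik on the opposite strand, and Exoc2 overlaps Hus1b on the same strand, and 4 short genes lie within Dmd, so some of their reads may have been counted with the other gene.

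**Figure D2:**
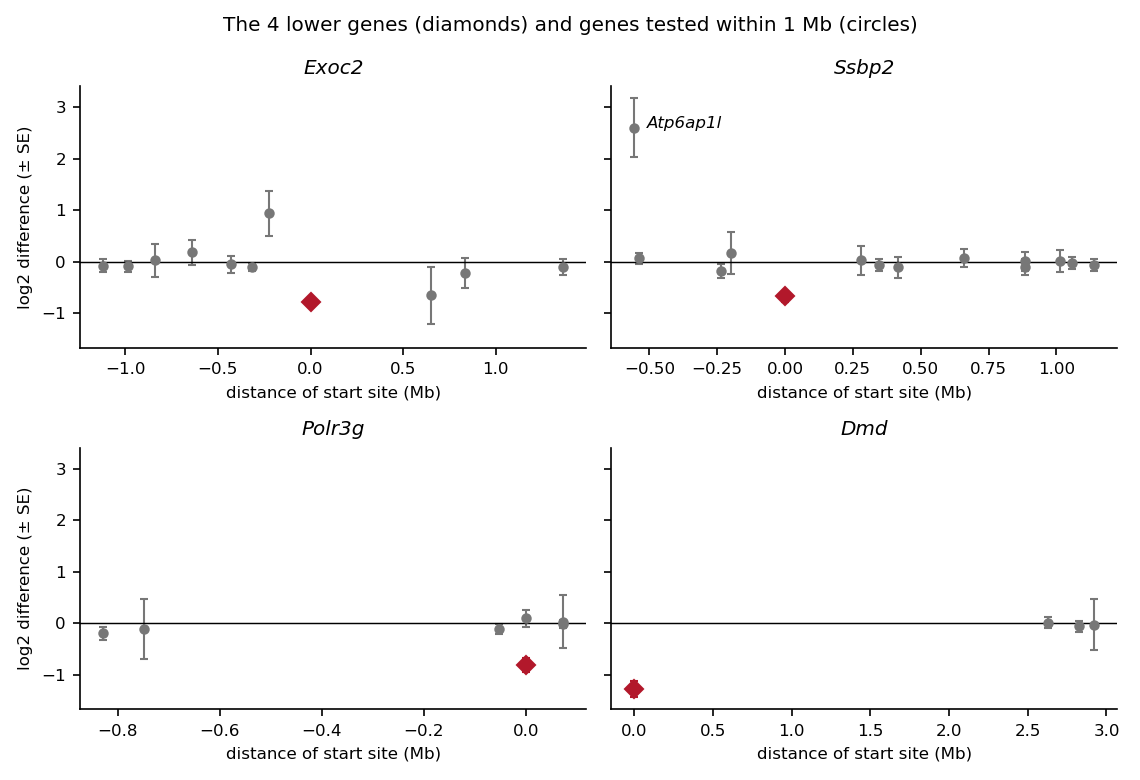
Log2 difference, cSirt4-Tg-TAC-MQ minus Con-TAC-MQ, with its SE (vertical axis) against the distance between start sites in Mb (horizontal axis), for the genes tested that reach within 1 Mb of each of the 4 lower genes. Red diamonds are the 4 lower genes and grey circles their neighbours. Apart from Atp6ap1l, at log2 2.60, no neighbour has groups without overlap.

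Among the higher genes Ndnf had the smallest adjusted p. Ndnf encodes a secreted neuron-derived neurotrophic factor. Ndnf (ENSMUSG00000049001, mm39 chromosome 6, 65648574 to 65689310) had 512, 645 and 839 normalized counts in cSirt4-Tg-TAC-MQ, and 151, 178 and 308 in Con-TAC-MQ. Its mean was 3.26 times the control mean, with no overlap (log2 1.73, SE 0.20, adjusted p = 6.64e-06). Klhdc7a, a kelch-domain protein, (ENSMUSG00000078234, mm39 chromosome 4, 139687531 to 139695337) had 410, 444 and 652 normalized counts in cSirt4-Tg-TAC-MQ, and 138, 201 and 228 in Con-TAC-MQ (log2 1.38, SE 0.20, adjusted p = 0.000176). Both passed in all 12 fits without 1 MitoQ library.

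Ndrg4, a cytoplasmic protein of cardiomyocytes and neurons, and Atp6v0e2, a subunit of the proton-pumping V-ATPase, were higher in every cSirt4-Tg-TAC-MQ heart by smaller steps. Ndrg4 (ENSMUSG00000036564, mm39 chromosome 8, 96403608 to 96441747) had 10149, 10793 and 11457 normalized counts in cSirt4-Tg-TAC-MQ, and 4762, 6002 and 7858 in Con-TAC-MQ (log2 0.83, SE 0.17, adjusted p = 0.0285). Atp6v0e2 (ENSMUSG00000039347, mm39 chromosome 6, 48514549 to 48518735) had 381, 406 and 416 normalized counts in cSirt4-Tg-TAC-MQ, and 198, 234 and 279 in Con-TAC-MQ (log2 0.76, SE 0.16, adjusted p = 0.0411). These calls turned on which libraries were fitted. Ndrg4 passed in 4 of 12 fits without 1 library, those without Con-TAC-MQ 3, 4, 5 or 6 (adjusted p 0.0170 to 0.114 over the 12), and Atp6v0e2 in 2 of 12, those without Con-TAC-MQ 3 or 5 (adjusted p 0.0235 to 0.164).

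The other 4 higher genes are known from immune cells, among other places. Mgl2 encodes a galactose-binding lectin of macrophages and dendritic cells, Lyz1 a lysozyme, Mmp12 the macrophage elastase, and Sema4a a semaphorin that immune cells carry. Mgl2 (ENSMUSG00000040950, mm39 chromosome 11, 70021155 to 70028376) had 245, 365 and 519 normalized counts in cSirt4-Tg-TAC-MQ, and 142, 184 and 242 in Con-TAC-MQ. The lowest of the one group and the highest of the other nearly touch (log2 0.99, SE 0.19, adjusted p = 0.0167). Mgl2 lost the call without cSirt4-Tg-TAC-MQ 2 or 3 or Con-TAC-MQ 2 (adjusted p up to 0.0957).

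Lyz1 (ENSMUSG00000069515, mm39 chromosome 10, 117123702 to 117128773) had 91.6, 141 and 234 normalized counts in cSirt4-Tg-TAC-MQ, and 3.04, 15.9 and 41.4 in Con-TAC-MQ. Its mean was 8.21 times the control mean (log2 3.34, SE 0.57, adjusted p = 0.00263), and it passed in all 12 fits without 1 library. Lyz1 falls outside the rule for named genes because its mean over the 12 libraries is under 100, and was named after its values were seen. Its near-identical neighbour Lyz2, the common macrophage lysozyme, had 5498, 6124 and 6825 normalized counts in cSirt4-Tg-TAC-MQ, and 1872, 2914 and 8754 in Con-TAC-MQ (log2 0.81, SE 0.24, adjusted p = 0.403). Reads that fit both genes could have been split between them, so the values of Lyz1 are uncertain. Mgl2 is uncertain in the same way beside its relative Clec10a, which had 87.4, 105 and 135 normalized counts in cSirt4-Tg-TAC-MQ, and 25.9, 57.9 and 93.4 in Con-TAC-MQ (log2 1.03, SE 0.37, adjusted p = 0.812).

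Mmp12 (ENSMUSG00000049723, mm39 chromosome 9, 7344381 to 7369499) had 55.7, 86.6 and 179 normalized counts in cSirt4-Tg-TAC-MQ, and 3.21, 10.6 and 91.2 in Con-TAC-MQ (log2 2.75, SE 0.53, adjusted p = 0.0167). The highest control value is that of Con-TAC-MQ 3, and the other control libraries lay at 3.21 to 14.5. Mmp12 passed in 6 of 12 fits without 1 library (adjusted p 0.000171 to 0.0963), and lost the call without cSirt4-Tg-TAC-MQ 1, 2 or 3 or Con-TAC-MQ 1, 2 or 6. Sema4a (ENSMUSG00000028064, mm39 chromosome 3, 88343266 to 88368489) had 185, 197 and 225 normalized counts in cSirt4-Tg-TAC-MQ, and 85.1, 135 and 160 in Con-TAC-MQ (log2 0.71, SE 0.15, adjusted p = 0.0329). It passed in 4 of 12, those without Con-TAC-MQ 3, 4, 5 or 6 (adjusted p 0.00759 to 0.164).

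Library names carry a number, and the labels do not say what it stands for. Over the series it ran from 7 to 31. All 12 MitoQ libraries carried 20 or 21, and of the vehicle TAC and sham libraries only Con-TAC 6 did. Across treatments the number and MitoQ can therefore hardly be told apart. Within the MitoQ hearts the number was 21 in 5 of 6 cSirt4-Tg-TAC-MQ libraries and in 2 of 6 Con-TAC-MQ libraries. Among the libraries numbered 21, Dmd had 1296 to 1618 normalized counts in cSirt4-Tg-TAC-MQ and 3950 to 4028 in Con-TAC-MQ, and Ndnf had 512 to 839 in cSirt4-Tg-TAC-MQ and 151 to 308 in Con-TAC-MQ. Within these 7 libraries, 2 of them controls, 216 of 16275 genes passed the threshold (limma). Among them were 10 of the 12 genes, Ndnf (adjusted p = 0.0611) and Sema4a (adjusted p = 0.0920) being the exceptions. The 12 were chosen in a fit that held these same libraries, so this is not a separate test of them. For a fit over all 36 libraries the number was put in classes, namely 7 to 14, 20, 21, and 29 to 31. With the class of the number as a covariate over all 36 libraries, Dmd, Exoc2, Ssbp2, Polr3g, Ndnf and Klhdc7a passed and the other 6 did not, with adjusted p from 0.0909 for Lyz1 to 0.428 for Sema4a. With the number as a covariate in the 12 MitoQ libraries alone 10 genes passed, 7 of them among the 12, namely the same 6 and Atp6v0e2 (adjusted p = 0.0179). The labels carry a second number, also unexplained, which was 12 to 14 in cSirt4-Tg-TAC-MQ and 6 to 11 in Con-TAC-MQ. It splits the groups fully, so in these 12 libraries it cannot be told apart from genotype.

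The same genes were then read in the hearts without MitoQ, which share no library with the MitoQ comparison. In sham hearts 142 of 16275 genes passed the threshold (0.873%), 128 higher (0.786%) and 14 lower (0.086%) in cSirt4-Tg-Sham. In vehicle TAC hearts 1054 passed (6.48%), 519 higher (3.19%) and 535 lower (3.29%) in cSirt4-Tg-TAC. All 12 differed in the same direction in sham hearts and 11 of the 12 passed there, which is 91.7% of the 12 and 7.75% of the 142. In vehicle TAC hearts 11 differed in the same direction and 7 passed, 58.3% of the 12 and 0.664% of the 1054. The 7 were Dmd, Exoc2, Ndnf, Klhdc7a, Ndrg4, Atp6v0e2 and Mmp12, and all 7 also passed in sham hearts.

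Dmd was lower in cSirt4-Tg hearts under each treatment. It averaged 1562 ± 175 normalized counts in cSirt4-Tg-TAC-MQ and 3777 ± 293 in Con-TAC-MQ, 1686 ± 488 in cSirt4-Tg-TAC and 3273 ± 1128 in Con-TAC, and 1374 ± 216 in cSirt4-Tg-Sham and 3015 ± 195 in Con-Sham (SD, n = 6 each). The log2 difference was -0.94 in vehicle TAC hearts (adjusted p = 0.00105) and -1.15 in sham hearts (adjusted p = 0.000119), against -1.28 with MitoQ. Ndnf averaged 641 ± 118 in cSirt4-Tg-TAC-MQ and 197 ± 58.9 in Con-TAC-MQ, 360 ± 132 in cSirt4-Tg-TAC and 173 ± 23.9 in Con-TAC, and 611 ± 152 in cSirt4-Tg-Sham and 237 ± 57.6 in Con-Sham. Its log2 difference was 0.98 in vehicle TAC hearts (adjusted p = 0.00839) and 1.35 in sham hearts (adjusted p = 0.000316), against 1.73 with MitoQ.

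The 5 genes that passed with MitoQ and not in vehicle TAC hearts were Polr3g, Ssbp2, Mgl2, Lyz1 and Sema4a. Polr3g had a log2 difference of -0.82 with MitoQ, -0.43 in vehicle TAC hearts (adjusted p = 0.0535) and -0.67 in sham hearts (adjusted p = 0.0127). Ssbp2 had -0.67 with MitoQ, -0.25 in vehicle TAC hearts (adjusted p = 0.113) and -0.67 in sham hearts (adjusted p = 0.000455). These 2 kept their direction in all treatments. Mgl2 had a log2 difference of 0.99 with MitoQ, -0.04 in vehicle TAC hearts (adjusted p = 0.922) and 0.72 in sham hearts (adjusted p = 0.0600). Lyz1 had 3.34 with MitoQ, 0.56 in vehicle TAC hearts (adjusted p = 0.557) and 3.09 in sham hearts (adjusted p = 0.00501). Sema4a had 0.71 with MitoQ, 0.08 in vehicle TAC hearts (adjusted p = 0.775) and 0.63 in sham hearts (adjusted p = 0.0277). The test of the difference between the MitoQ and vehicle TAC differences did not pass for any of the 5 (Mgl2 log2 1.03, SE 0.27, adjusted p = 0.322; adjusted p of 0.479 for Lyz1, 0.533 for Sema4a, 0.546 for Ssbp2 and 0.592 for Polr3g).

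One vehicle TAC library bears on these values. The library labelled cSirt4-Tg-TAC 6 lay within the Con-TAC range for 9 of the 12 genes, with 183 normalized counts of Ndnf against 278 to 512 in the other cSirt4-Tg-TAC libraries, and 2493 of Dmd against 1082 to 1838. Without it 3642 genes passed in vehicle TAC hearts (22.4%), 1790 higher (11%) and 1852 lower (11.4%), and 8 of the 12 passed in the same direction, Ssbp2 being the addition (log2 -0.29, adjusted p = 0.0481). Dmd then differed by log2 -1.07, Ndnf by 1.16 and Mgl2 by -0.15. Not all of the 9 genes set this library apart. For Sema4a every cSirt4-Tg-TAC library lay within the Con-TAC range, and for Ssbp2 cSirt4-Tg-TAC 4 and 5 did too. The share over all genes was not counted.

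**Figure D3:**
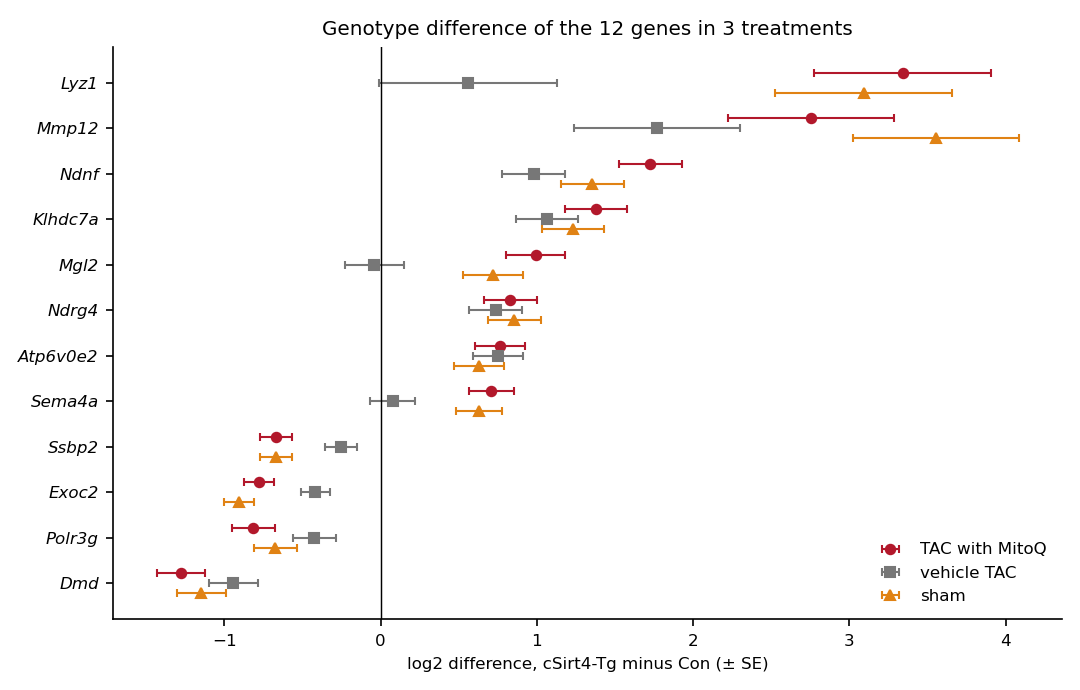
Log2 difference, cSirt4-Tg minus Con, with its SE (horizontal axis) for the 12 genes in TAC hearts with MitoQ (red circles), vehicle TAC hearts (grey squares) and sham hearts (orange triangles), 6 libraries per genotype and treatment. All 12 differ in the same direction with MitoQ and in sham hearts. In vehicle TAC hearts Mgl2 and Sema4a lie nearest 0, with differences of -0.04 and 0.08.

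Across all genes, no genotype difference with MitoQ passed a test against the genotype difference in vehicle TAC hearts (0% of 16275; limma, 1377 genes, 8.46%, at an unadjusted p under 0.05) or in sham hearts (0%; 408 genes, 2.51%, at an unadjusted p under 0.05). On the recovered reads edgeR called 0 in both, and DESeq2 called 16 against vehicle TAC hearts and 0 against sham hearts. Without cSirt4-Tg-TAC 6 limma called 23 against vehicle TAC hearts. The 5 genes with the smallest p against vehicle TAC were mt-Co3, a subunit of cytochrome c oxidase encoded in the mitochondrion, and Gm10925, Gm28661, Gm28437 and Gm28439, listed next to one another on chromosome 1 in a stretch known to copy mitochondrial DNA. Reads that fit both copies could have been split between them, so these values are uncertain. mt-Co3 had 114, 147 and 183 normalized counts in cSirt4-Tg-TAC-MQ, and 96.9, 147 and 166 in Con-TAC-MQ (log2 0.07, SE 0.22), while its log2 difference in vehicle TAC hearts was -1.49. The test of that difference gave log2 1.56 and adjusted p = 0.0612.

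Against sham hearts the smallest p belonged to Atp8a2, a phospholipid flippase, Met, the receptor of hepatocyte growth factor, Plau, the urokinase plasminogen activator, Ppbp, a platelet chemokine, and Jaml, an adhesion molecule of leukocytes. Atp8a2 had 480, 667 and 716 normalized counts in cSirt4-Tg-TAC-MQ, and 467, 586 and 619 in Con-TAC-MQ. Its ranges overlap (log2 0.14, SE 0.16), and its log2 difference in sham hearts was 1.04. None of the 5 passed (adjusted p = 1.00 for each).

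In all, 54 lists of pathway genes and cell type markers were read beside these results, and 2 of them held a gene that passed the threshold. The median difference over all genes tested was log2 -0.01, with 7850 of 16275 above 0 (48.2%). For whole hearts, fewer cells of a type and less RNA per cell cannot be told apart.

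The dystrophin complex anchors the muscle cell membrane to the matrix. Of 23 genes of that complex and of the costamere tested, Dmd fell, none rose, and the median difference was log2 -0.08. Utrn, the close relative of dystrophin, had 2642, 3126 and 3362 normalized counts in cSirt4-Tg-TAC-MQ, and 2935, 3299 and 3370 in Con-TAC-MQ, with wide overlap (log2 -0.08, SE 0.15, adjusted p = 1.00). Sntb1, a syntrophin that binds dystrophin, had 232, 299 and 401 normalized counts in cSirt4-Tg-TAC-MQ, and 100, 139 and 329 in Con-TAC-MQ. The highest control is Con-TAC-MQ 3. The difference did not pass with that library (log2 0.95, SE 0.26, adjusted p = 0.291) and passed without it (log2 1.16, adjusted p = 0.0238).

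Other genes of the contractile and electrical apparatus did not pass. Of 22 sarcomere and Z-disc genes 18 lay below 0 (median log2 -0.07), and Actn2, the alpha-actinin of the Z-disc, had 48833, 52812 and 60558 normalized counts in cSirt4-Tg-TAC-MQ, and 59595, 68259 and 76648 in Con-TAC-MQ (log2 -0.35, SE 0.09, adjusted p = 0.135). Its lowest control is again Con-TAC-MQ 3, and without it the adjusted p was 0.0280. Ctnna3, the alpha-catenin of the intercalated disc, was chosen after its values were seen. It had 411, 461 and 567 normalized counts in cSirt4-Tg-TAC-MQ, and 657, 941 and 1066 in Con-TAC-MQ, without overlap (log2 -0.91, SE 0.22, adjusted p = 0.122, and 0.0348 without Con-TAC-MQ 3). Calcium handling genes had 6 of 19 above 0 (median log2 -0.06), ion channels and gap junctions 12 of 21 (median log2 0.03), and neither held a gene that passed.

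Fetal and hypertrophy genes, which the stressed ventricle re-expresses, had 12 of 19 above 0 and a median of log2 0.05, and none passed. Nppa, atrial natriuretic peptide, had 22320, 33350 and 45664 normalized counts in cSirt4-Tg-TAC-MQ, and 3905, 15572 and 32600 in Con-TAC-MQ. The highest 3 of the 6 cSirt4-Tg-TAC-MQ values lay above every control, but the controls spread widely (log2 1.19, SE 0.71, adjusted p = 1.00).

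Markers of macrophages stood higher in most libraries labelled cSirt4-Tg-TAC-MQ, and their test turned on 1 control library. All 20 markers tested had a difference above 0, with a median of log2 0.57, and none passed. Their summed level was 16194, 17113 and 18655 normalized counts in cSirt4-Tg-TAC-MQ, and 6903, 10074 and 24880 in Con-TAC-MQ. Con-TAC-MQ 3 held the highest sum of all 12 libraries, and the other 5 control libraries, up to 13952, lay below every cSirt4-Tg-TAC-MQ library. None of the 20 was at 0 in all 12 libraries.

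Csf1r, the receptor of the macrophage growth factor CSF1, had 1832, 1976 and 2180 normalized counts in cSirt4-Tg-TAC-MQ, and 860, 1274 and 1911 in Con-TAC-MQ (log2 0.60, SE 0.14, adjusted p = 0.110). Without Con-TAC-MQ 3, 64 of 16275 genes passed (0.393%), 55 higher (0.338%) and 9 lower (0.0553%), and 5 of the 20 macrophage markers were among the higher ones. These were Lyz2 (log2 1.08), Csf1r (0.71), Tyrobp (1.07), Mrc1 (0.62) and Adgre1 (0.84), chosen after their values were seen, apart from Csf1r. Tyrobp is an adaptor of myeloid receptors, Mrc1 the mannose receptor and Adgre1 the F4/80 antigen. In a fit of the 11 MitoQ libraries alone without Con-TAC-MQ 3, 633 genes passed (3.89%), 408 higher (2.51%) and 225 lower (1.38%), with 17 of the 20 markers among the higher ones. A fit with array weights kept all libraries and gave those that stand apart less weight. There 303 of 16275 genes passed as higher, 15 of the 20 markers among them. In Con-TAC-MQ 3, with the highest marker sum, Mgl2 was at 242, Lyz1 at 15.0 and Mmp12 at 91.2 normalized counts, and the part of these cells in the differences of those 3 genes was not tested.

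Other immune lists differed in sign. Resident macrophage markers had 9 of 10 above 0 (median log2 0.34), and dendritic cell markers 5 of 7 (median log2 0.77), with none passing. Itgax, which encodes the integrin CD11c, had 59.2, 79.3 and 177 normalized counts in cSirt4-Tg-TAC-MQ, and 12.2, 18.7 and 138 in Con-TAC-MQ, the highest control being Con-TAC-MQ 3 (log2 1.88, SE 0.55, adjusted p = 0.409, and 0.0221 without that library). Itgb2, the beta chain of leukocyte integrins, was chosen after its values were seen. It had 313, 348 and 437 normalized counts in cSirt4-Tg-TAC-MQ, and 120, 163 and 970 in Con-TAC-MQ (adjusted p = 0.999, and 0.00559 without that library). Neutrophil markers had 1 of 4 above 0 (median log2 -1.17) but were near the floor, and their summed levels had like medians. The sum was 56.6, 71.8 and 107 normalized counts in cSirt4-Tg-TAC-MQ, and 50.3, 71.6 and 307 in Con-TAC-MQ, where Con-TAC-MQ 3 was the highest. T and NK cell markers were also near the floor, with a summed level of 80.6 to 161 normalized counts in cSirt4-Tg-TAC-MQ and 58.1 to 91.2 in Con-TAC-MQ over 13 genes.

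All 21 antigen presentation genes lay above 0 with a median of log2 0.26, and 0.29 without Con-TAC-MQ 3, and none passed in either of those fits. In the fit of 11 MitoQ libraries alone 8 of the 21 passed, all higher, against 2.51% of all genes. With array weights 5 of the 21 passed as higher, against 303 of 16275 genes. The largest values came from the class II genes, whose products present peptides on macrophages, dendritic cells and B cells. H2-Eb1 had 1099, 1977 and 2514 normalized counts in cSirt4-Tg-TAC-MQ, and 799, 850 and 1163 in Con-TAC-MQ (log2 1.06, SE 0.28, adjusted p = 0.224). H2-Aa (log2 0.97), H2-Ab1 (log2 1.00) and Cd74, the invariant chain (log2 0.93), were alike, with adjusted p of 0.278, 0.371 and 0.417. Their log2 differences were 0.82, 0.93 and 0.86 in sham hearts and 0.33, 0.17 and 0.30 in vehicle TAC hearts. The whole list had 8 of 21 above 0 in sham hearts (median log2 -0.08) and 19 of 21 in vehicle TAC hearts (median log2 0.14). The 10 B and plasma cell markers, whose cells also carry class II, summed to 262 to 656 normalized counts in cSirt4-Tg-TAC-MQ and 242 to 405 in Con-TAC-MQ, and their part in the class II values was not tested.

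Complement genes, which encode plasma proteins that tag targets for phagocytes, had 15 of 16 above 0 (median log2 0.41). Their summed level did not overlap between groups, at 25661 to 30532 normalized counts in cSirt4-Tg-TAC-MQ and 12730 to 24577 in Con-TAC-MQ. The summed adipocyte markers did not overlap either, in the opposite direction, at 691 to 754 in cSirt4-Tg-TAC-MQ and 763 to 893 in Con-TAC-MQ. The groups of 3 of the 16 complement genes did not overlap, against 0.873% of all genes, and 8 of the 16 passed as higher in the fit of 11 libraries, against 2.51%. With array weights 7 of the 16 passed as higher, against 303 of 16275 genes. C3, the central component, had 7240, 8241 and 10342 normalized counts in cSirt4-Tg-TAC-MQ, and 2688, 4631 and 7647 in Con-TAC-MQ (log2 0.89, SE 0.27, adjusted p = 0.516). Ccl8, a monocyte chemokine, had 94.3, 108 and 133 normalized counts in cSirt4-Tg-TAC-MQ, and 6.09, 31.6 and 99.2 in Con-TAC-MQ (log2 1.81, SE 0.54, adjusted p = 0.446). For C3 and Ccl8 the highest control was Con-TAC-MQ 3. Without that library the limma adjusted p was 0.0990 for C3 and 0.0674 for Ccl8. In the fit of 11 libraries it was 0.0108 for C3 and 0.00775 for Ccl8. Interferon-stimulated genes leaned lower, with 10 of 31 above 0 (median log2 -0.12).

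Matrix genes, the collagens and their partners, had 34 of 43 above 0 (median log2 0.25), and none passed. Their summed level was 154361, 176403 and 186536 normalized counts in cSirt4-Tg-TAC-MQ, and 106643, 130962 and 338966 in Con-TAC-MQ, the last value being Con-TAC-MQ 3. Col3a1, the fibrillar collagen III, had 17178, 20112 and 21177 normalized counts in cSirt4-Tg-TAC-MQ, and 5208, 9031 and 51016 in Con-TAC-MQ (log2 0.81, SE 0.36, adjusted p = 1.00). Without Con-TAC-MQ 3 the other control libraries reached 13857 at most, and Col3a1 passed (log2 1.25, adjusted p = 0.0295). It was chosen after its values were seen and was the only 1 of the 43 to pass in that fit, against 15 in the fit of 11 libraries, where 2.51% of all genes were higher. With array weights 9 of the 43 passed as higher, against 303 of 16275 genes.

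Fibroblast markers had 15 of 16 above 0 (median log2 0.37), at a summed level of 94133 to 113323 normalized counts in cSirt4-Tg-TAC-MQ and 51912 to 139984 in Con-TAC-MQ. The highest control sum was that of Con-TAC-MQ 3, and the other control libraries reached 90475 at most. None of the 16 passed with all libraries. Without Con-TAC-MQ 3, 1 passed as higher, against 0.338% of all genes. In the fit of 11 libraries 4 did, against 2.51%, and with array weights 5 did, against 303 of 16275 genes. Dpt, the fibroblast matrix protein dermatopontin, had 2351, 2714 and 2992 normalized counts in cSirt4-Tg-TAC-MQ, and 1184, 1788 and 2579 in Con-TAC-MQ (log2 0.57, SE 0.14, adjusted p = 0.176). Ogn, the small proteoglycan osteoglycin, had 3241, 3782 and 4326 normalized counts in cSirt4-Tg-TAC-MQ, and 2161, 3232 and 3610 in Con-TAC-MQ (log2 0.35, SE 0.12, adjusted p = 0.670). Matrix proteases and inhibitors had 14 of 19 above 0 (median log2 0.30), Mmp12 rose and none fell. TGF-beta and myofibroblast genes had 17 of 34 above 0 (median log2 -0.01).

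**Figure D4:**
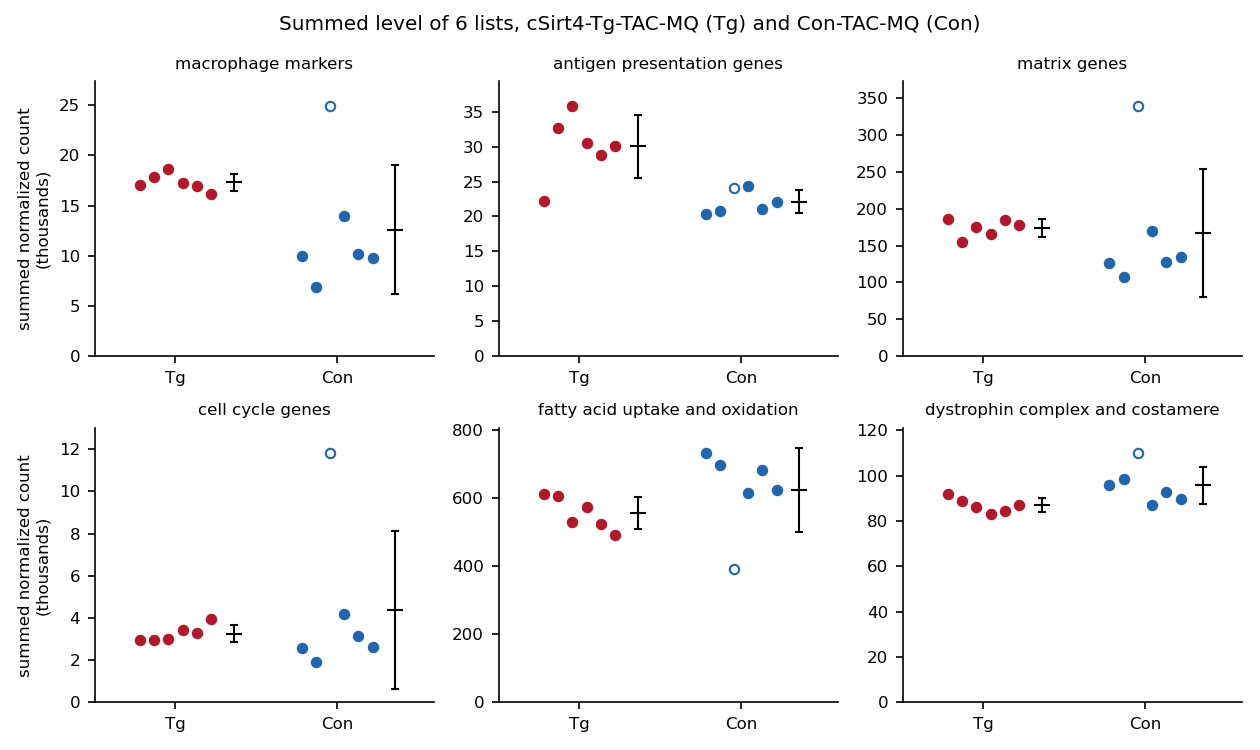
Summed normalized read counts divided by 1000 (vertical axis, from 0) of 6 gene lists in the 6 cSirt4-Tg-TAC-MQ libraries (Tg, red) and the 6 Con-TAC-MQ libraries (Con, blue), with the mean ± SD. The open circle is Con-TAC-MQ 3, which is the highest of the 12 libraries for macrophage markers (24880), matrix genes (338966) and cell cycle genes (11816) and the lowest for fatty acid genes (391357).

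Genes of mitochondrial fuel use leaned slightly lower, and none passed. Fatty acid uptake and oxidation had 6 of 44 above 0 (median log2 -0.12), the TCA cycle and pyruvate oxidation 1 of 29 (median log2 -0.10), and ketone and branched-chain amino acid use 1 of 20 (median log2 -0.12). Cd36, the fatty acid transporter, had 42029, 45398 and 51698 normalized counts in cSirt4-Tg-TAC-MQ, and 36405, 53861 and 69621 in Con-TAC-MQ (log2 -0.22, SE 0.13, adjusted p = 1.00). Glud1, the glutamate dehydrogenase that SIRT4 is known to modify, had 4022, 4135 and 4561 in cSirt4-Tg-TAC-MQ, and 4213, 4713 and 4887 in Con-TAC-MQ (log2 -0.13, SE 0.07, adjusted p = 1.00). Bdh1, a ketone body dehydrogenase, had 3259, 4244 and 4893 in cSirt4-Tg-TAC-MQ, and 3984, 5603 and 7123 in Con-TAC-MQ (log2 -0.42, SE 0.20, adjusted p = 1.00).

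The lowest control values of Cd36, Glud1 and Bdh1 all belong to Con-TAC-MQ 3. Without it the medians were log2 -0.26 for fatty acid genes, -0.19 for the TCA cycle and -0.22 for ketone and branched-chain genes, and still no member passed. In the fit of 11 libraries 13 of 44, 10 of 29 and 10 of 20 fell, against 1.38% of all genes. With array weights over all libraries, which give a library that stands apart less weight, 1 of 44, 0 of 29 and 3 of 20 fell. Over all genes 102 of 16275 fell in that weighted fit. Cardiomyocyte markers moved with these lists, with 2 of 13 above 0 (median log2 -0.07, and -0.22 without Con-TAC-MQ 3), and their part was not tested. Nuclear subunits of the respiratory chain had 10 of 42 above 0 (median log2 -0.04), and mitochondrially encoded genes 3 of 12 (median log2 -0.06).

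No gene of the lists closest to the known action of SIRT4 and of MitoQ passed. Sirtuins and NAD enzymes had 11 of 21 above 0 (median log2 0.00), antioxidant genes 18 of 36 (median log2 -0.01) and the integrated and mitochondrial stress response 11 of 27 (median log2 -0.01). Gpx4, the lipid peroxide reductase, had 5546, 6688 and 7284 normalized counts in cSirt4-Tg-TAC-MQ, and 4941, 5586 and 6483 in Con-TAC-MQ (log2 0.24, SE 0.12, adjusted p = 1.00). NADPH and monoamine oxidases, which generate reactive oxygen species, had 9 of 12 above 0 (median log2 0.37). Their summed level leaned the other way, at 5780, 6346 and 6938 normalized counts in cSirt4-Tg-TAC-MQ, and 6288, 6884 and 9018 in Con-TAC-MQ. In the fit of 11 libraries 5 passed as higher and 1 as lower, against 2.51% and 1.38% of all genes. Cyba, the p22phox subunit that phagocytes also carry, had 510, 557 and 620 normalized counts in cSirt4-Tg-TAC-MQ, and 379, 407 and 605 in Con-TAC-MQ (log2 0.36, SE 0.14, adjusted p = 0.939). Its highest control was Con-TAC-MQ 3. Without that library its limma adjusted p was 0.192, and 0.00621 in the fit of 11 libraries. Gdf15, a secreted stress signal, ranged from 156 to 610 in cSirt4-Tg-TAC-MQ and from 19.3 to 775 in Con-TAC-MQ, where Con-TAC-MQ 3 was the highest (log2 1.58, SE 0.85, adjusted p = 1.00, and log2 2.18, adjusted p = 0.436, without that library).

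For some lists the sign of the median turned without Con-TAC-MQ 3. Cell cycle genes had 6 of 25 above 0 and a median of log2 -0.14 with it, and 21 of 25 and 0.41 without it. Endoplasmic reticulum chaperones had 0 of 18 above 0 (median log2 -0.13) with it, and 11 of 18 (median log2 0.01) without it. No member of either list passed in either fit.

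**Figure D5:**
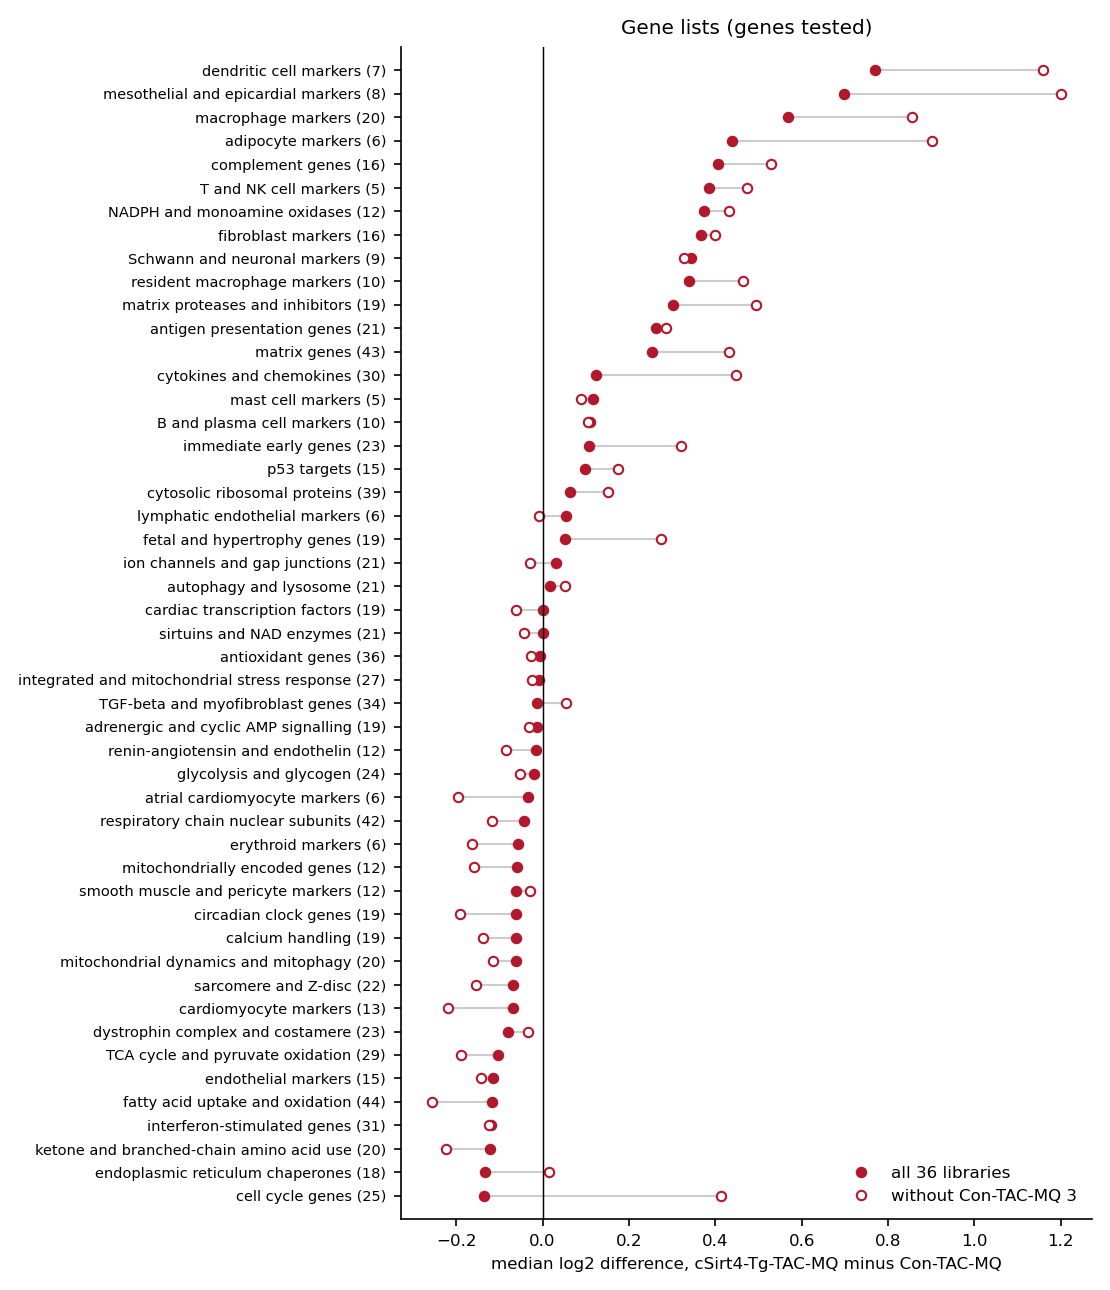
Median log2 difference, cSirt4-Tg-TAC-MQ minus Con-TAC-MQ (horizontal axis), of each list with at least 5 genes tested (number in brackets), with all 36 libraries (filled circles) and without Con-TAC-MQ 3 (open circles). Macrophage markers lie at 0.57 and 0.85 and fatty acid genes at -0.12 and -0.26, while cell cycle genes lie at -0.14 with all libraries and 0.41 without Con-TAC-MQ 3.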

How the data were processed

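The authors deposited 1 table of normalized read counts per gene and library, a signal with no negative values. Per the labels, whole-heart RNA went into directional libraries. The submitters' processing notes name Trim Galore, STAR and the build mm39. Tool versions, the counter, whether it used strand, and the normalizer: not given in the sources used here. All values (100%) came out as whole reads within 0.01 read, so reads were recovered for edgeR and DESeq2, which called 11 and 27 genes in the MitoQ comparison.

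Groups came from the titles. Of 25626 listed genes, 16275 reached 10 in 6 or more libraries and entered the test as log2(value + 1) with limma 3.58.1 (trend, robust, 1 mean per group over 36 libraries, 30 residual degrees of freedom, R 4.3.3), two-sided, with Benjamini-Hochberg adjustment over all genes at 0.05. Sirt4 was tested by exact permutation over 924 splits. The genes named are Sirt4, called genes with a mean of at least 100 over the 12 libraries and no overlap (up to 12 each way), up to 3 called genes per list (or the one with the smallest p), and the 5 smallest p of each difference between treatments. Genes outside it are named as such. Members and lists were chosen with earlier results of these data known. Replicate numbers did not pair the groups. Steps were tested on simulated data. Alternatives were other pseudocounts, filters, scalings, array weights, a replicate block, the name number, edgeR 4.0.16, DESeq2 1.42.0 and leaving out each library. Promoters were matched by symbol for 11 of the 12 genes.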

Additional observations from a re-analysis of the deposited data

Results flagged for a closer look

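In 54 groups of 6 values examined for a library far from the rest, 4 stood out, all in Con-TAC-MQ 3. Chance gives about 5% of groups. Mmp12, the macrophage elastase, was 91.2 normalized counts in Con-TAC-MQ 3, against 3.21 to 14.5 in the other Con-TAC-MQ libraries. The summed matrix genes were 338966, against 106643 to 169324. The summed cell cycle genes were 11816, against 1898 to 4205. The median correlation with its own group was 0.945, against 0.973 to 0.979. The cause was not tested.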

How the results depend on the processing

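The 12 calls were also made with a pseudocount of 0.5 (12 genes), with TMM factors (12), with median-centred libraries (12) and with a minimum of 50 (12), and the same 12 genes were called each time. The count was 19 with no filter, 27 with only the libraries compared (10 of the 12 kept), 405 with array weights, 6 with the name number class as a covariate (all from the 12), 216 with only the libraries named 21 (10 kept), 10 with the name number as a covariate in the MitoQ libraries alone (7 kept) and 27 with DESeq2. It ranged from 7 to 64 when 1 library was left out, the 7 without cSirt4-Tg-TAC-MQ 2 or 3 or Con-TAC-MQ 2 and the 64 without Con-TAC-MQ 3. Without Con-TAC-MQ 3 it was 633 in the 11 MitoQ libraries alone and 45 with edgeR. These 2, the name number fit of the MitoQ libraries alone and the fit without cSirt4-Tg-TAC 6 were chosen after seeing the data. Genes whose MitoQ difference departed from that in vehicle TAC numbered 0, but 4 with the same total outside the mitochondrial genome, 159 with array weights and 16 with DESeq2, and 0 to 23 when 1 library was left out (23 without cSirt4-Tg-TAC 6). Against sham the count was 1 with array weights and 0 to 0 when 1 library was left out. Genes called with MitoQ and in sham numbered 11, but 261 with array weights, 6 with the name number class and 20 with DESeq2, and 7 to 48 when 1 library was left out (48 without Con-TAC-MQ 3). For vehicle TAC the 7 became 290, 4 and 17, and 4 to 47 when 1 library was left out (47 without Con-TAC-MQ 3, 16 without cSirt4-Tg-TAC 6). The log2 difference of Sirt4 was 0.038 with the same total outside the mitochondrial genome, and -0.0391 to 0.0154 when 1 library was left out. Same-numbered libraries were not more alike (r -0.11 to 0.16), and a replicate block gave 10 calls, all among the 12. The causes were not tested. Lyz1 and Mmp12 rest on low counts in most control libraries.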
